A study of Homo sapiens with 12 samples.

Results

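The nuclear genes that switch on mitochondrial DNA expression were followed as a set of 10 genes across the 12 RNA-seq libraries of the series. The set was given by name as NRF1, GABPA, GABPB1, ESRRA, TFAM, TFB1M, TFB2M, POLRMT, POLG and TWNK. All 10 symbols were found among the 61860 genes counted, with 90 of the 251121 transcripts in the table. Every one of the 10 genes passed the filter on low counts (a mean count above 2) in each comparison, as did 77 of the 90 transcripts in whole-cell RNA.

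PGC-1α is a co-activator that has no DNA-binding domain of its own and works through transcription factors already bound to DNA. Among these are nuclear respiratory factor 1 (NRF1), the heterodimer of GABPA and GABPB1 (also called NRF-2, in which GABPA binds ETS motifs and GABPB1 carries the activation domain) and the orphan receptor ERRα, encoded by ESRRA. They act on nuclear genes for the respiratory chain and on those whose products copy and read the mitochondrial genome. TFAM packages mitochondrial DNA and opens its promoters, TFB2M melts the promoter for the polymerase POLRMT, and TFB1M methylates mitochondrial ribosomal RNA. POLG is the catalytic subunit of the DNA polymerase and TWNK the helicase of the mitochondrial replisome.

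The cells were HEK293 Flp-In T-REx, a human embryonic kidney line with a single site for integrating a transgene under a doxycycline-responsive promoter. Both lines carried a transgene for miRNAs against the endogenous PGC-1α mRNA and for a FLAG-tagged PGC-1α that the miRNAs do not target, which was full length in WT-res and lacked the arginine-serine (RS) domain in ΔRS-res. Both were given doxycycline at 1 µg/ml for 6 days, and neither an uninduced nor a parental line was among the 12 libraries. RNA was taken from whole cells and from the cytoplasm after hypotonic lysis, with 3 replicates from consecutive passages for each line and fraction, so that p-values measure the spread between passages of 1 line each. Ribosomal RNA was depleted before sequencing, and the libraries held between 90333190 and 144628005 expected counts, the estimated read numbers that the program RSEM assigns to each transcript.

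The libraries were first compared with their labels. DDX19B, an RNA helicase gene that separates these lines, stood at 12.6 and 13.2 CPM (counts scaled to a common library size) in WT-res whole-cell replicates 1 and 2 and between 13.6 and 14.8 CPM in WT-res cytoplasm, but at 0.22 to 0.34 CPM in all 6 ΔRS-res libraries. The whole-cell library labelled WT-res replicate 3 had 0.21 CPM. SDHA, a subunit of succinate dehydrogenase, was at 335 CPM in that library, within the 317.6 to 391.8 CPM of ΔRS-res and above the 70.4 to 75.1 CPM of the other 5 WT-res libraries. By both genes this library goes against its label. It was kept under the label, and the edgeR fold changes given for the 10 genes in unblocked comparisons that use it stand with and without it. PPARGC1A, the PGC-1α gene, does not settle the matter because endogenous and introduced copies are counted together: it was at 672, 689 and 498 CPM in WT-res whole-cell libraries and at 352, 364 and 498 CPM in ΔRS-res. NEAT1, a nuclear RNA, fell by 1.52 on the log2 scale from whole-cell to cytoplasmic RNA in WT-res and by 1.49 in ΔRS-res (adjusted p = 0.000557 and 0.000332, edgeR), and KCNQ1OT1, another nuclear RNA, fell by 1.90 and 1.54 (adjusted p = 2.35e-05 and 9.18e-05, edgeR). Without the doubted library the WT-res values were -1.43 and -1.91. MALAT1, the third nuclear RNA tested, had -0.71 and -0.40 and did not pass (adjusted p = 0.0935 and 0.135, edgeR), and MEG3 did not pass the count filter. When libraries of the same line and number were paired as blocks, MALAT1 passed in ΔRS-res (-0.40, adjusted p = 0.00171, edgeR), against 56.5% of all genes. In WT-res it had -0.69 with the blocks and did not pass (adjusted p = 0.0531, edgeR). No marker list of the HEK293 line was tested.

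Levels can be compared between genes only per length, so counts were divided by annotated transcript length and scaled to the same total in each library. On this scale TFAM had the most RNA in WT-res whole cells, 85.1 ± 14.4 (SD, n = 3). POLG followed with 39.2 ± 1.54, then POLRMT with 30.9 ± 1.34 and TWNK with 29.7 ± 6.13, the last 2 of which did not differ beyond their spread. GABPA (21.4 ± 3.94), GABPB1 (20.6 ± 1.44) and ESRRA (18.6 ± 3.04) formed a middle group with overlapping spreads. The lowest were TFB1M (14.2 ± 2.11), NRF1 (13.6 ± 1.1) and TFB2M (10.4 ± 1.63). TFAM led in all 4 groups. The order below TFAM depends on how length is set: with the longest annotated transcript of each gene, TFAM alone kept its place in WT-res whole cells and GABPB1 dropped from rank 6 to rank 9.

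Promoter windows of 300 bases, 250 before to 50 after the annotated start, were available for 8 of the 10 genes in RefSeq (GRCh38.p14), for GABPA, GABPB1, ESRRA, TFAM, TFB1M, TFB2M, POLRMT and POLG. Motifs of the factors in the set were sought in them on both strands. The NRF1 core GCGCATGCG was in 3 of the 8 windows (TFB1M, TFB2M and POLRMT), against 1.92% of 35116 promoter windows. With any base at its sixth letter, GCGCANGCG, which takes in the first motif, it was in 5 of the 8 (also ESRRA and TFAM), against 7.52%. The ETS motif CCGGAAGT, which GABPA recognises, was in the windows of GABPA and POLRMT, against 4.14% of all windows. The ERRα motif TCAAGGTCA was in 0 of the 8 windows and in 0.353% of all. The 8 windows held 60.3% to 75.0% G and C, above the median of 58.7% over all windows. The shares were not adjusted for this. These matches describe letters in the windows and not binding.

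The windows of the 6 genes with a match are shown. They are written, 5′ to 3′ on the strand of the gene, with every match on either strand in capitals. The windows lie at chr6:155314435-155314734 (minus strand) for TFB1M, chr1:246566212-246566511 (minus) for TFB2M, chr19:633488-633787 (minus) for POLRMT, chr10:58385160-58385459 (plus) for TFAM, chr11:64305274-64305573 (plus) for ESRRA and chr21:25734722-25735021 (plus) for GABPA. Counted from the start site, the leftmost base of the NRF1 match lies at -132 in TFB1M, -16 in TFB2M, -24 in POLRMT, -62 in TFAM and -93 in ESRRA. In TFB1M and POLRMT matches on both strands overlap. The ETS matches of POLRMT and GABPA lie at -94 and -67.
TFB1M: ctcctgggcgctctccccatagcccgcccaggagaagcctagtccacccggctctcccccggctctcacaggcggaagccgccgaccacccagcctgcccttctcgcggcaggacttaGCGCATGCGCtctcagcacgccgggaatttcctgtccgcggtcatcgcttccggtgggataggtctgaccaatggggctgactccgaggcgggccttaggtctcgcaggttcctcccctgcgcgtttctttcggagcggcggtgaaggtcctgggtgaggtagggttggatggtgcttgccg
TFB2M: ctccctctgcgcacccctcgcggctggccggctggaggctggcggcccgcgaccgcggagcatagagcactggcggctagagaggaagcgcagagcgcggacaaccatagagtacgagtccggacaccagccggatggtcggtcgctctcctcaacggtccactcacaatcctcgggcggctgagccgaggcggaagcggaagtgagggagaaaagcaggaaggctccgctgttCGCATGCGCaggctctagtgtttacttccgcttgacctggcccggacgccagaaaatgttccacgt
POLRMT: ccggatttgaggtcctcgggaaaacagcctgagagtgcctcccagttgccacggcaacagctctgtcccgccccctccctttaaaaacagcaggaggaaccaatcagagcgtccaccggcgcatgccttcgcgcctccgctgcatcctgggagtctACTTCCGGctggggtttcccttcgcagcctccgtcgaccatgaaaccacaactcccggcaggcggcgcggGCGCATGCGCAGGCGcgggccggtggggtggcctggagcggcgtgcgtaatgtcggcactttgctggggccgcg
TFAM: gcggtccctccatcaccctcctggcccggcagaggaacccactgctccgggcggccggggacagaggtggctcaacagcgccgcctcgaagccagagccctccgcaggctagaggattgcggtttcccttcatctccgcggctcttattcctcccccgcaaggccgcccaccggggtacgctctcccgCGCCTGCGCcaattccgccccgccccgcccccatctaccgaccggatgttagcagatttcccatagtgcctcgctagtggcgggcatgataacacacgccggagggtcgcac
ESRRA: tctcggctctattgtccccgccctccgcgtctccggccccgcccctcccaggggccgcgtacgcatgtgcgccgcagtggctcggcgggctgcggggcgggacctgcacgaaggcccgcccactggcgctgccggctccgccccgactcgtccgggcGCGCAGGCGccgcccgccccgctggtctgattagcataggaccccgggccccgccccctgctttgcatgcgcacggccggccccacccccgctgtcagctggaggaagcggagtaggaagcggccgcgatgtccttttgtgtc
GABPA: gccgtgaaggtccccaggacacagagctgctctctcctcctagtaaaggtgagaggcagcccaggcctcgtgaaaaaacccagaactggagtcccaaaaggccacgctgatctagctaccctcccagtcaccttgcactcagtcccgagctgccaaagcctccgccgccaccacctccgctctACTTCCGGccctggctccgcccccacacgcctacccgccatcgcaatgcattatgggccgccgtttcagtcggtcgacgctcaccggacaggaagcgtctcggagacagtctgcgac

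The first comparison asked whether the amount of these mRNAs in whole cells differs between the 2 lines. The lines also differed in DDX19B and SDHA. PPARGC1A in ΔRS-res was 0.653-fold that of WT-res in whole cells and 0.53-fold with 6 cytoplasmic libraries. An effect of the RS domain therefore cannot be told apart from other differences between the lines. Gene positions are those of GENCODE 44 on GRCh38. GABPA, the DNA-binding subunit of NRF-2 (ENSG00000154727, chr21:25734570-25772460, plus strand), differed most. It was at 62.6, 90.9 and 88.2 CPM in WT-res replicates 1, 2 and 3 and at 49.0, 54.4 and 46.4 CPM in ΔRS-res, so the groups did not overlap. The log2 fold change (ΔRS-res over WT-res) was -0.69 (SE 0.147), or 0.62-fold, with an adjusted p of 0.211 in edgeR's quasi-likelihood test. Without the library labelled WT-res replicate 3 it was -0.62 (adjusted p = 0.0965, edgeR), where none of the 10 genes passed either, against 2.06% of all genes. Without WT-res replicate 1, the lowest WT-res library for GABPA, it was -0.84 and passed (adjusted p = 0.0223, edgeR), against 2.03% of all genes. The library labelled replicate 3, with ΔRS-res levels of DDX19B and SDHA, had 88.2 CPM of GABPA, close to the 90.9 CPM of WT-res replicate 2.

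POLRMT, the mitochondrial RNA polymerase (ENSG00000099821, chr19:617221-633537, minus strand), was the other gene without overlap. Its levels were 52.8, 48.0 and 51.7 CPM in WT-res and 59.3, 58.5 and 67.6 CPM in ΔRS-res, a log2 fold change of 0.28 (SE 0.0848, adjusted p = 0.244, edgeR). TFAM (ENSG00000108064, chr10:58385345-58399220, plus strand) went the other way, with 206.6, 238.3 and 190.0 CPM in WT-res and 186.5, 197.7 and 157.0 CPM in ΔRS-res. The lines overlapped, but within each replicate number ΔRS-res was the lower one (log2 fold change -0.23, SE 0.117). ESRRA (ENSG00000173153, chr11:64305497-64316743, plus strand) had 27.9, 24.9 and 35.9 CPM in WT-res against 32.3, 32.5 and 42.0 CPM in ΔRS-res, higher in ΔRS-res at every number (log2 fold change 0.27, SE 0.163). Without the library labelled WT-res replicate 3 the log2 fold changes were 0.29 for POLRMT, -0.30 for TFAM and 0.43 for ESRRA, with adjusted p of 0.142, 0.198 and 0.14 (edgeR).

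None of the 10 genes passed an adjusted p under 0.05 in this fit, and neither did any of the 26794 genes tested (0%). At an unadjusted p under 0.05, edgeR had 1071 genes higher and 2298 lower, GABPA and POLRMT among them, and DESeq2's Wald test called 271 higher and 794 lower after adjustment (3.97%), of the 10 genes GABPA alone. The DESeq2 fit was not repeated without the library labelled WT-res replicate 3. Groups failed to overlap for 2 of the 10 genes, against 18.9% of all genes. The median log2 fold change of the set was 0.02, against 0.00 for all genes, with 5 genes higher and 5 lower.

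Same-numbered whole-cell libraries of the lines deviated from their group means together. Pearson correlations were 0.644, 0.715 and 0.718 for numbers 1, 2 and 3 over 13609 genes. The numbers were therefore used as pairs. Correlations between unlike numbers are not given here, and number 3 takes in the doubted library. With the replicate number as a block, 4 of the 10 genes passed, against 7.95% of all genes. GABPA fell by 0.67 on the log2 scale (SE 0.106, adjusted p = 0.0285) and TFAM fell by 0.23 (SE 0.0481, adjusted p = 0.043). POLRMT rose by 0.28 (SE 0.056, adjusted p = 0.0397) and ESRRA rose by 0.27 (SE 0.0553, adjusted p = 0.0402, all edgeR). The same 4 genes passed with the block when the library labelled WT-res replicate 3 was left out, with log2 fold changes of -0.55, -0.21, 0.23 and 0.30, against 16.4% of all genes. This last estimate rests on 2 pairs.

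The other 6 genes did not pass, with or without the block. GABPB1, the partner of GABPA (ENSG00000104064, chr15:50275389-50355408, minus strand), had a log2 fold change of -0.14 (SE 0.0887), less than that of GABPA. TWNK (ENSG00000107815, chr10:100987367-100994403, plus strand) had 0.21 (SE 0.159), which was 0.05 without the library labelled WT-res replicate 3, where it was at 49.6 CPM against 74.6 CPM in WT-res replicate 1 and 69.9 CPM in replicate 2. POLG (ENSG00000140521, chr15:89305198-89334861, minus strand) had 0.09 (SE 0.0766) and NRF1 (ENSG00000106459, chr7:129611720-129757082, plus strand) 0.06 (SE 0.0767). Without that library GABPB1 had -0.10, POLG 0.08 and NRF1 0.02. TFB2M (ENSG00000162851, chr1:246540561-246566261, minus strand) had -0.09 (SE 0.142) and TFB1M (ENSG00000029639, chr6:155256134-155314493, minus strand) -0.03 (SE 0.165), which were -0.19 and 0.12 without the library labelled WT-res replicate 3. NRF1 was also the steadiest of the set, between 26.6 and 30.4 CPM in all 6 whole-cell libraries.

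**Figure D1:**
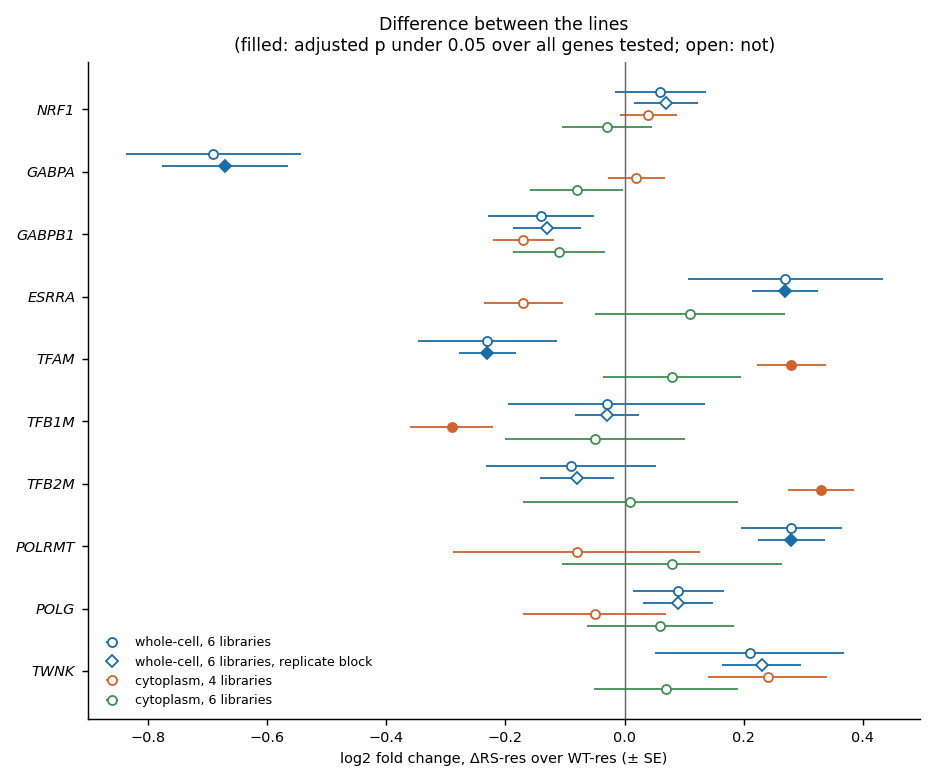
Log2 fold change of ΔRS-res over WT-res (x axis, ± SE) for each of the 10 genes in whole-cell RNA without and with the replicate block and in the cytoplasm with 4 and with 6 libraries. Filled symbols mark an adjusted p under 0.05 over all genes tested. With 4 cytoplasmic libraries TFB1M, TFB2M and TFAM are filled, at -0.29, 0.33 and 0.28, with the block GABPA, TFAM, POLRMT and ESRRA are, and GABPA stands near 0 in both cytoplasmic fits.

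In the cytoplasm the study kept 4 of the 6 libraries, WT-res replicates 1 and 3 and ΔRS-res replicates 1 and 2. In these, TFB2M and TFAM were higher in ΔRS-res and TFB1M was lower. TFB2M was at 14.5 and 14.7 CPM in WT-res and 18.3 and 18.4 CPM in ΔRS-res (log2 fold change 0.33, SE 0.0556, adjusted p = 0.00987). TFAM was at 220.1 and 245.3 CPM in WT-res and 276.0 and 285.2 CPM in ΔRS-res (0.28, SE 0.0579, adjusted p = 0.0207). TFB1M was at 18.9 and 21.2 CPM in WT-res and 15.9 and 16.6 CPM in ΔRS-res (-0.29, SE 0.0694, adjusted p = 0.0302, all edgeR). These 3 of 10 genes passed, against 22.1% of the 25810 genes tested. Leaving out 1 of the 4 libraries leaves 1 residual degree of freedom, so that the spread comes from the other line and the lone library is assumed to vary like it. In such fits none passed without ΔRS-res replicate 1 or 2, against 8.70% and 7.85% of all genes. Without WT-res replicate 1 it was 5 of 10, against 24.5%, and without WT-res replicate 3 it was 4 of 10, TFB1M not among them, against 24.1%. GABPB1 (-0.17, SE 0.0514) and ESRRA (-0.17, SE 0.0663) were under an unadjusted 0.05 only. GABPA overlapped between the lines, at 105.3 and 114.1 CPM in WT-res and 111.9 and 109.4 CPM in ΔRS-res (0.02, SE 0.0472). NRF1 (0.04), POLG (-0.05), POLRMT (-0.08) and TWNK (0.24) did not pass either, with adjusted p of 0.151 for TWNK.

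With all 6 cytoplasmic libraries 0 of the 10 genes passed, against 1.51% of 25946 genes, and none was under an unadjusted 0.05. The added libraries lay at the opposite ends for TFB2M and TFB1M. TFB2M was at 19.7 CPM in WT-res replicate 2, the highest of the 6, and at 12.5 CPM in ΔRS-res replicate 3, the lowest. TFB1M was at 15.6 CPM in WT-res replicate 2, the lowest of the 6, and at 21.3 CPM in ΔRS-res replicate 3, the highest. TFAM was at 284.3 and 233.8 CPM in these libraries. Log2 fold changes with 6 libraries were 0.01 for TFB2M (SE 0.181), -0.05 for TFB1M (SE 0.151) and 0.08 for TFAM (SE 0.116). All 10 genes overlapped between the lines, and 17.2% of all genes did not. GABPA had -0.08 (SE 0.0782), and ESRRA had 0.11 (SE 0.16).

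TFB1M was highest where TFB2M was low, in both lines and both fractions. TFB1M was highest in replicate 3 of all 4 groups, at 21.2 and 21.0 CPM in whole cells and 21.2 and 21.3 CPM in the cytoplasm (WT-res, then ΔRS-res). Replicates 1 and 2 lay between 15.2 and 16.8 CPM, except for WT-res cytoplasmic replicate 1 with 18.9 CPM. TFB2M was lowest in replicate 3 of 3 of the groups, and in WT-res cytoplasm replicates 1 and 3 were nearly equal at 14.5 and 14.7 CPM. ESRRA was highest and TFAM lowest in replicate 3 of those same 3 groups, and in WT-res cytoplasm replicate 1 took that place for both (39.2 and 220.1 CPM). The 4 libraries kept by the study thus set the 2 WT-res libraries with high TFB1M against the 2 ΔRS-res libraries with low TFB1M. Whether passage or another property of these libraries moves the genes was not tested.

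**Figure D2:**
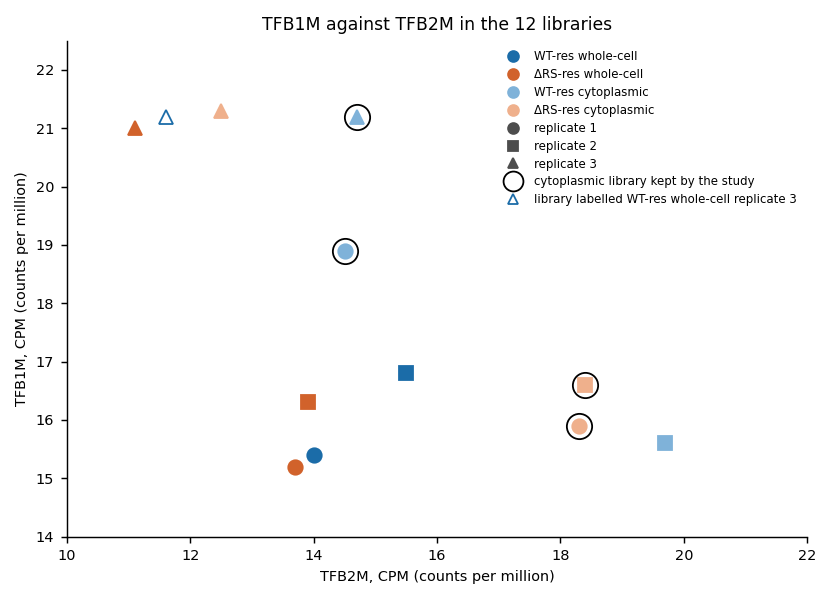
TFB1M (y axis) against TFB2M (x axis) in CPM, scaled within a fraction, in each of the 12 libraries, with colours for groups and shapes for replicates (neither axis starts at 0). Black rings mark the 4 cytoplasmic libraries kept by the study, whose WT-res members (18.9 and 21.2 CPM of TFB1M) sit above the ΔRS-res members (15.9 and 16.6 CPM).

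Across the 12 libraries, with log2(CPM + 1) centred within each fraction, the Pearson correlation of TFB2M was -0.88 with TFB1M, -0.92 with ESRRA and 0.85 with TFAM. POLRMT and POLG varied together (0.95). Within the set, GABPA varied most with its partner GABPB1 (0.71). These are descriptions over 12 libraries that share 2 lines and 3 replicate numbers. Of 14936 genes with a mean count of at least 100, the one most like TFB1M was DCLK1, a microtubule kinase (0.988), and the one most like TFB2M was PCDH18, a protocadherin (0.988). GABPA was most like PGGT1B, a prenyltransferase subunit (0.994), TFAM like LAMTOR3, a lysosomal scaffold (0.992), and ESRRA like ADCY1, an adenylyl cyclase (0.993). TWNK was most like SETD1B (0.994), POLRMT and POLG both like SBF1 (0.978 and 0.975), GABPB1 like ATL2 (0.968) and NRF1 like SCAF4 (0.924).

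The second question was how far each mRNA was found in the cytoplasm relative to whole cells. CPM are shares of a library, so a change in the total RNA of a fraction cannot be told apart from a change of all its mRNAs. GABPA had the largest ratio in both lines. CPM were scaled over all 12 libraries together, and libraries of the same line and number were paired. The cytoplasmic over whole-cell difference in log2 CPM was 0.87, 0.49 and 0.44 in WT-res and 1.26, 1.09 and 1.19 in ΔRS-res. The WT-res value of 0.44 uses the doubted whole-cell library. The fitted values were 0.58 in WT-res (SE 0.144, adjusted p = 0.0173) and 1.18 in ΔRS-res (SE 0.0844, adjusted p = 2.18e-05, edgeR). GABPA was thus 1.49-fold and 2.27-fold higher in cytoplasmic than in whole-cell libraries.

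GABPB1 rose in the cytoplasm by 0.45 in WT-res and 0.47 in ΔRS-res on the log2 scale (adjusted p = 0.012 and 0.000936, edgeR), and NRF1 had 0.32 and 0.22 (adjusted p = 0.0299 and 0.0277, edgeR). The NRF1 calls were not stable: NRF1 passed in 0 of the 6 WT-res fits and 1 of the 6 ΔRS-res fits that leave out a library, the 1 being without cytoplasmic replicate 3, and in neither line without the filter on low counts. TFAM rose by 0.64 in ΔRS-res (SE 0.114, adjusted p = 0.00299, edgeR), with pairs at 0.64, 0.61 and 0.65, and had 0.33 in WT-res (SE 0.127, adjusted p = 0.0787), with pairs at 0.21, 0.35 and 0.44. In all, 3 of 10 genes in WT-res and 4 of 10 in ΔRS-res passed, against 34.4% and 41.1% of all genes. All of them were higher in the cytoplasm, against 12% and 17% of all genes. TFB2M had 0.34 and 0.43, ESRRA 0.34 and 0.18, TWNK 0.25 and 0.10 and TFB1M 0.15 and 0.12. POLG (-0.13 and -0.16) and POLRMT (0.01 and -0.20) had the lowest cytoplasmic shares of the set. The median of the set was 0.33 in WT-res and 0.20 in ΔRS-res, against -0.06 and -0.05 for all genes. This was not particular to the set. Of the lists of related genes described below, mitochondrial DNA maintenance had medians of 0.22 and 0.25. Mitochondrial transcription and RNA processing had 0.17 and 0.33, and co-activators and regulators 0.27 and 0.24. Targets of the respiratory factors had 0.08 and 0.15.

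The study's sample sheet gives 1 pellet name to both fractions of each line and number, while its methods take whole-cell RNA from 1 well and cytoplasmic RNA from 6 pooled wells, so these sources differ on what a pair shares. In ΔRS-res the correlations of the paired deviations were 0.666, 0.573 and 0.821. In WT-res they were -0.18, 0.643 and 0.527, so number 1 did not deviate together, and for number 3 DDX19B was at 0.21 CPM in whole cells and 14.5 CPM in the cytoplasm. Leaving out 1 library left between 0 and 3 genes called in WT-res, with 0 of 10 (19.3% of all genes) without cytoplasmic replicate 3 and GABPB1 alone (29.1%) without cytoplasmic replicate 2. In ΔRS-res it left between 3 and 7, the 7 (42.7% of all genes) without cytoplasmic replicate 3. With the pellet name as a block 6 of 10 genes passed in WT-res (38.8% of all genes, both directions), TFAM, TFB2M and ESRRA being added, a count that rests on these doubtful pairs, and 8 of 10 in ΔRS-res (56.5% of all genes). The ΔRS-res genes added were TFB2M and ESRRA, higher in the cytoplasm, and POLRMT (-0.21) and POLG (-0.16), lower. When the whole-cell library labelled WT-res replicate 3 was left out, GABPB1 (0.47), GABPA (0.63) and ESRRA (0.49) passed in WT-res without the block (36.5% of all genes), and GABPA alone with it (0.66, adjusted p = 0.0223, edgeR; 18.9% of all genes). NRF1 then had 0.26 and did not pass (adjusted p = 0.062, edgeR), nor did TFB1M (0.27), TFAM (0.24), TFB2M (0.22), TWNK (0.07), POLRMT (0.01) and POLG (-0.15). WT-res cytoplasmic replicate 1 had the most mitochondrially encoded RNA of its fraction, 0.328% of its counts against 0.0919% to 0.248% in the other 5 cytoplasmic libraries. It also had the most NEAT1, 123 CPM against 72.5 to 101 CPM, and the most MALAT1, 1705 CPM against 968 to 1472 CPM, but not the most KCNQ1OT1, 7.58 CPM against 6.02 to 8.67 CPM. The part of this in the results was not tested.

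**Figure D3:**
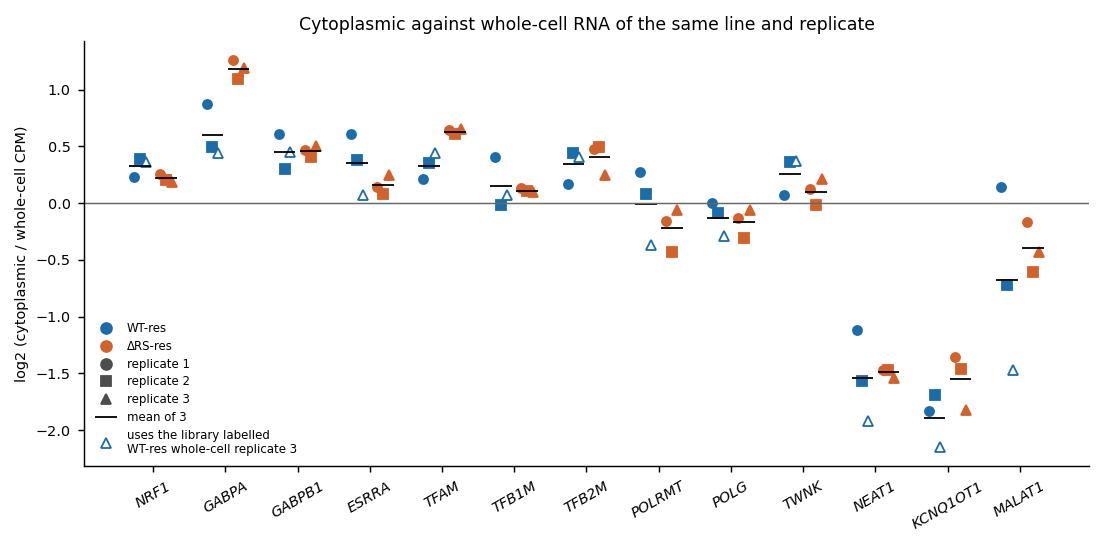
Log2 ratio of cytoplasmic to whole-cell CPM (y axis) for each line and replicate, for the 10 genes and 3 nuclear RNAs on the x axis, with CPM scaled over all 12 libraries. Black lines give the mean of 3 pairs. GABPA lies between 0.44 and 0.87 in WT-res and between 1.09 and 1.26 in ΔRS-res, NEAT1 and KCNQ1OT1 lie below -1 in every pair, and MALAT1 lies between -1.47 and 0.14.

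Whether the 2 lines differ in this ratio was tested by the interaction of line and fraction over all 12 libraries. None of the 10 genes passed (0.00375% of 26687 genes did, 1 gene). GABPA had the largest value, 0.60 (SE 0.176, unadjusted p = 0.00551, adjusted p = 0.698, edgeR), and TFAM had 0.30 (SE 0.17). With the pellet name as a block these were 0.58 (adjusted p = 0.177) and 0.30 (adjusted p = 0.309, edgeR). Without WT-res whole-cell replicate 1 GABPA had 0.75 and passed (adjusted p = 0.00769, edgeR; 1.65% of all genes), and without the whole-cell library labelled WT-res replicate 3 it had 0.52 and TFAM 0.36, and neither passed (adjusted p = 0.887 for both, edgeR). For GABPA the higher ratio in ΔRS-res went with a lower whole-cell level, while cytoplasmic levels overlapped. The 3 nuclear RNAs tested were also lower in ΔRS-res whole cells, with a median of -0.33 (-0.11 without the doubted library). None passed without the replicate block, and KCNQ1OT1 passed with it (-0.33, adjusted p = 0.0376, edgeR), against 7.95% of all genes. With that block and without the doubted library 2 passed as lower, against 16.4%. All 3 interaction values were above 0 (median 0.30) and none passed. Whether this bears on GABPA was not tested.

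At the level of transcripts the study's threshold was used, which asks for a log2 fold change larger than 0.5 in either direction and p under 0.05 before adjustment. In whole-cell RNA 5 of the 77 transcripts tested were called, 6.5%, against 5.25% of 129700 transcripts. Of these, 2 were higher in ΔRS-res and 3 lower. The higher ones were TFB1M-208 (1.21, SE 0.472) and TWNK-208 (1.16, SE 0.433). Without the library labelled WT-res replicate 3 they had 1.61 and 0.82 and were still called. Both main transcripts of GABPA were among the lower ones, GABPA-202 (ENST00000400075) at -0.51 (SE 0.195) and GABPA-201 (ENST00000354828) at -0.87 (SE 0.204). These annotated transcripts of 5226 and 5120 bases made up nearly all of the gene's counts. GABPA-202 held 56.8%, 60.0% and 67.2% of them in WT-res whole cells and 63.6%, 65.5% and 73.7% in ΔRS-res. The lines overlap, and the share is higher in ΔRS-res at each of the 3 numbers, a difference that was not tested. Without the library labelled WT-res replicate 3, GABPA-201 had -0.91 and was called, and GABPA-202 had -0.37 and was not. None of the 5 calls passed an adjusted p over all transcripts, the smallest being 0.567 for GABPA-201 (edgeR).

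POLG was made of many transcripts, 26 of 30 with a count, and those annotated with a retained intron held a share that differed between the lines. Together they took 18.4% ± 0.468 of POLG counts in WT-res whole cells and 13.3% ± 0.795 in ΔRS-res (SD, n = 3), with ranges of 18.0% to 18.9% and 12.6% to 14.2%. In the cytoplasm the shares were 7.96% ± 1.59 and 7.59% ± 2.06, which overlap. POLG-227 (ENST00000672071), one of these transcripts, was called lower in ΔRS-res whole cells (-0.53, SE 0.147, unadjusted p = 0.0103, edgeR), with shares of 8.86%, 9.01% and 9.38% against 5.65%, 5.08% and 6.26%. The library labelled WT-res replicate 3 gave the highest of these WT-res shares, and without it the fold change was -0.52 (unadjusted p = 0.026, edgeR). This pattern was chosen after its values were seen, and the share itself was not tested.

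In the cytoplasm 8 of 74 transcripts were called with 4 libraries, 10.8% against 8.78% of 122729, and 1 of 76 with 6 libraries, 1.3% against 4.06% of 124558. Several of these were transcripts that RSEM set to 0 in some libraries. NRF1-203 had 0 and 0 expected counts in WT-res replicates 1 and 3 and 70.6 and 94.4 in ΔRS-res, but also 36.2 in WT-res replicate 2 and 0 in ΔRS-res replicate 3. TWNK-202 had 0 and 0 against 428.1 and 174.1 in the 4 libraries, and 507.8 in WT-res replicate 2 and 837.6 in ΔRS-res replicate 3. TFAM-201 (ENST00000373895, 973 bases), which held 5.96% to 10.6% of TFAM counts beside the long TFAM-204, was higher in ΔRS-res with 4 libraries (0.67, SE 0.102) and had 0.23 (SE 0.261) with 6. The smallest adjusted p was 0.175 with 4 libraries and 0.941 with 6 (edgeR).

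Genes beside the 10 were compared to see whether whole stretches of chromosome differed. The median log2 fold change of the 20 nearest expressed genes in whole cells lay between -0.18 and 0.16 for all 10 genes. For GABPA it was -0.18, with 17 of 20 neighbours lower in ΔRS-res, so the gene's -0.69 lay beyond the middle range of its neighbours (-0.49 to -0.05). Without the library labelled WT-res replicate 3 the neighbours had -0.15 and GABPA -0.62. For ESRRA the neighbours had 0.16, with 19 of 20 higher, and for TFAM -0.16. ATP5PF, which starts beside GABPA on the opposite strand, was at 91.8 CPM in whole cells, above the GABPA mean of either line (80.5 and 49.9 CPM), and had -0.00 there, 0.36 with 4 and 0.23 with 6 cytoplasmic libraries. TRMT112 beside ESRRA, at 60.2 CPM also above its member, had -0.03 and MRPL43 beside TWNK 0.08, and TIAM2, which overlaps TFB1M on the opposite strand, had 0.10 in whole cells and -0.38 with 4 cytoplasmic libraries. The strand setting of the counting was not given in the sources used here, so reads of such overlapping genes may be shared. In whole cells 2 more opposite-strand overlaps had more counts than their member. GABPB1-AS1, a noncoding RNA, had 91.3 CPM in whole cells and log2 fold changes of -0.02 there and -0.60 with 4 cytoplasmic libraries, and FANCI, a DNA repair gene beside POLG, had 302 CPM and -0.05 and 0.02. Processed pseudogenes carried little, at most 1.47 CPM for POLRMTP1 in whole cells.

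Genes that work with the 10 were read from lists. The neighbours of these list genes were not compared. Whether any of them lie in a stretch of chromosome that differs between the lines was not tested. Their counts stand beside the shares of all genes given above, 0% in whole cells, 7.95% with the block, 22.1% with 4 cytoplasmic libraries and 1.51% with 6. Of 16 genes of mitochondrial transcription and RNA processing, 11 were lower in ΔRS-res whole cells (median log2 fold change -0.15, against 0.00 for all genes), and none passed without the block. With the block 2 passed. MTERF1, a terminator of mitochondrial transcription, had -0.67 (adjusted p = 0.0269, edgeR). FASTKD2, an RNA-binding protein of the mitochondrial large ribosomal subunit, had -0.52 (adjusted p = 0.0245, edgeR). Without the doubted library and without the block 2 passed as lower, against 2.06% of all genes. They were MTERF4 (-0.66, adjusted p = 0.0102, edgeR) and FASTKD2 (-0.62, adjusted p = 0.0162, edgeR). MTERF4 was at 42.0, 40.3 and 23.6 CPM in WT-res replicates 1, 2 and 3 and 24.3 to 27.3 CPM in ΔRS-res. FASTKD2 was also the 1 gene of the list that passed with 6 cytoplasmic libraries (-0.45, adjusted p = 0.048, edgeR), at 68.8, 82.0 and 75.0 CPM in WT-res and 56.3, 56.8 and 52.1 CPM in ΔRS-res. With 4 libraries 6 passed higher and 1 lower, among them TRMT10C, a subunit of mitochondrial RNase P (0.53), and HSD17B10, its partner (0.61).

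Of 13 genes that maintain mitochondrial DNA, none passed in whole cells without the block and LIG3, the mitochondrial DNA ligase, passed with it (0.21, adjusted p = 0.0427, edgeR). None passed with 6 cytoplasmic libraries. With 4, SSBP1 (0.46) was among 2 higher and TOP1MT (-0.63) and POLG2 (-0.24) among 3 lower. SSBP1 binds single-stranded mitochondrial DNA, TOP1MT is its topoisomerase and POLG2 the accessory subunit of POLG. POLG2 was lower in cytoplasmic than in whole-cell RNA, by 0.60 in WT-res and 0.63 in ΔRS-res (adjusted p = 0.00427 and 0.00153, edgeR), while RRM2B, a ribonucleotide reductase subunit, was higher by 0.62 in WT-res and 1.13 in ΔRS-res (adjusted p = 0.0187 and 3.44e-05, edgeR). The difference between the lines in that ratio was 0.50 for RRM2B and did not pass (adjusted p = 0.774, edgeR). Without the doubted library the WT-res values were -0.59 for POLG2 and 0.75 for RRM2B.

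Among co-activators and regulators, CREB1, a cAMP-responsive factor, was lower in ΔRS-res whole cells with the block (-0.72, adjusted p = 0.0232) and with 6 cytoplasmic libraries (-0.42, adjusted p = 0.0262, edgeR). It was at 61.2, 65.0 and 67.3 CPM in WT-res cytoplasm and 47.5, 49.7 and 47.2 CPM in ΔRS-res, without overlap. RXRA and PPARA rose (0.40 and 0.32) in whole cells with the block, PPARA being named because it passed. There PRKAA2, a catalytic subunit of AMPK, fell (-0.52). In whole cells without the doubted library and without the block CREB1 and RXRA passed, against 2.06% of all genes. They had -0.86 (adjusted p = 0.0177, edgeR) and 0.42 (adjusted p = 0.0488, edgeR). PPARGC1A itself was lower with 6 cytoplasmic libraries (-0.92, adjusted p = 0.016, edgeR). No other of the 18 genes passed with 6 libraries, and 3 passed higher and 10 lower with 4.

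Of 17 targets of the respiratory factors, 15 were higher in ΔRS-res whole cells and 17 with 6 cytoplasmic libraries, by medians of 0.09 and 0.15 against 0.00 for all genes, and none passed in either, while 4 passed higher with 4 libraries, among them COX6B1 of complex IV (0.36) and SDHD of complex II (0.32). With the block CYCS, cytochrome c, passed as lower in whole cells (-0.41, adjusted p = 0.041, edgeR), at 251, 311 and 322 CPM in WT-res and 223, 226 and 214 CPM in ΔRS-res. All 13 mitochondrially encoded mRNAs were lower in ΔRS-res whole cells, with a median of -0.33. None passed without the block, and MT-ND2 (-0.39) and MT-ND6 (-0.42, named because it passed) passed with it. Without the library labelled WT-res replicate 3 the median was -0.24 with 12 of 13 lower. That library had the largest share of mitochondrially encoded RNA in whole cells, 2.65% against 1.92% to 2.28% in the other 5. WT-res replicates 1 and 2 had 1.92% and 2.28%, and ΔRS-res had 2.04%, 1.99% and 1.96%. In this summed share the WT-res libraries thus lay on either side of ΔRS-res in whole cells. Single mRNAs in CPM differed in this. MT-ATP6 was at 1334, 1609 and 1542 CPM in WT-res and 1212, 1179 and 1019 CPM in ΔRS-res. MT-ATP8, MT-ND1, MT-ND2, MT-ND3 and MT-ND4L did not overlap either, against 18.9% of all genes. MT-CO3, MT-ND4 and MT-ND6 overlapped. In the cytoplasm all 13 were lower with 4 libraries, with a median of -0.43, but the WT-res libraries lay on either side of ΔRS-res. Mitochondrially encoded RNA was 0.328% and 0.0919% of counts in WT-res replicates 1 and 3 against 0.185% and 0.129% in ΔRS-res replicates 1 and 2, so the direction goes with WT-res replicate 1 alone, and with 6 libraries 6 were higher and 7 lower, with a median of -0.03. None passed in either. Without the library labelled WT-res replicate 3 and with the block (16.4% of all genes), 2 genes of mitochondrial DNA maintenance passed as higher, 1 of transcription and RNA processing as higher and 4 as lower, 3 co-activators and regulators as higher and 4 as lower, 6 targets as higher and 1 as lower, and 4 mitochondrially encoded mRNAs as lower.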

How the data were processed

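Per the study's methods the authors used Trim Galore for trimming and STAR for alignment (GRCh38, Ensembl 107) and deposited RSEM expected counts per transcript, one column for each of the 12 libraries. The strand setting was not given in the sources used here. Expected counts were rounded per transcript and summed per gene. Names and coordinates came from GENCODE 44, which matched 99.83% of gene IDs. edgeR 4.0.16 in R 4.3.3 (TMM, mean count above 2, quasi-likelihood test, Benjamini-Hochberg over all genes, adjusted p under 0.05) gave the main results, with DESeq2 1.42.0, its size factors, no filter, a replicate block and leaving out each library as alternatives. The block without the whole-cell library labelled WT-res replicate 3 was added after seeing the data. Per-million values in the plots and text were scaled with TMM within a fraction, while log2 ratios of fractions used CPM scaled with TMM over all 12 libraries, with 0.1 CPM as pseudocount. Scripts were tested on simulated data. The members and gene lists were chosen with earlier results of these data known. Named genes were the 10 members, up to 3 genes with the smallest p for each list and comparison, the gene most like each member, and transcripts that passed or held at least 5% of a gene's counts.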

Additional observations from a re-analysis of the deposited data

How the results depend on the processing

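DESeq2's size factors in the edgeR fit left direction and call of 52 of 52 values unchanged. DESeq2's Wald test called 1 of the 10 genes in whole cells (3.97% of all genes) and 5 in the fraction comparison of WT-res (38.7%). In that of ΔRS-res it also called 5, TFB2M being gained, against 5664 genes higher and 5651 lower of 26590. Without a filter on low counts 6 were called with 4 cytoplasmic libraries (20.3%), 2 in the WT-res fraction comparison (22.2%) and 4 in that of ΔRS-res (27.1%). In these unfiltered fraction comparisons NRF1 was lost in both lines and TFB2M gained in ΔRS-res. With the replicate block 4 were called in whole cells (7.95%), 6 in the WT-res (38.8%) and 8 in the ΔRS-res fraction comparison (56.5%), and 0 with 6 cytoplasmic libraries, whose numbers do not pair the lines (correlations of -0.495, 0.704 and 0.472). The block without the whole-cell library labelled WT-res replicate 3 called 4 in whole cells (16.4%) and 1 in the WT-res fraction comparison (18.9%). At an adjusted p under 0.05, 0 transcripts of the 10 genes were called in any of the 3 comparisons. With the longest annotated transcript 1 of 10 levels kept its rank in WT-res whole cells. No paired analysis was possible for the 4 cytoplasmic libraries because the lines share only replicate number 1 there.

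Reversed values outside the fits that leave out a library were small: GABPA with 4 cytoplasmic libraries was -0.01 without the filter, and POLRMT in the WT-res fraction comparison was -0.00 without the filter and -0.01 with the block. Leaving out each library in turn gave 0 to 1 genes called in whole cells, 0 to 5 with 4 and 0 to 0 with 6 cytoplasmic libraries, 0 to 3 and 3 to 7 in the WT-res and ΔRS-res fraction comparisons and 0 to 1 for the interaction. Called transcripts of the 10 genes ranged from 3 to 6 in whole cells and from 1 to 3 with 6 cytoplasmic libraries. Over all transcripts 1753 to 4040 were then called higher and 2758 to 4792 lower in whole cells, of 128703 to 129619 tested. With 6 cytoplasmic libraries it was 1890 to 3126 higher and 1914 to 3556 lower, of 123545 to 124799. Log2 fold changes that turned sign ranged from -0.18 to 0.12 for TFB1M and -0.19 to 0.01 for TFB2M in whole cells. With 4 cytoplasmic libraries they ranged from -0.37 to 0.26 for POLRMT, -0.22 to 0.12 for POLG and -0.05 to 0.07 for GABPA, and with 6 from -0.19 to 0.06 for TFB1M, -0.09 to 0.17 for TFB2M, -0.08 to 0.20 for ESRRA, -0.08 to 0.25 for POLRMT, -0.05 to 0.16 for POLG, -0.06 to 0.02 for NRF1 and -0.04 to 0.19 for TWNK. In the fraction comparisons they ranged from -0.16 to 0.15 for POLRMT in WT-res, and from -0.03 to 0.27 for TFB1M and -0.02 to 0.31 for ESRRA in ΔRS-res. The cause of these changes was not tested.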
